A study of Mus musculus with 2 samples.

Results

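The genes described here are 33 type I interferon-stimulated genes, chosen by name from a list of known targets and not by their values. All 33 were found among the 31053 genes of the count matrices, each in 1 row. They were followed across classes of immune cells in 2 single-cell RNA-seq libraries of mouse colon, both from bone marrow chimeric mice with CD45.1 recipients. The donor cells of the first library, called KO, lacked the IL-10 receptor, and those of the second, called DKO, lacked the IL-10 receptor and the ceramide synthase CerS2. Donor cells carried CD45.2, and those of both libraries share the loss of the IL-10 receptor, whose deleted gene the paper gives as Il10rb. The sort is described by CD45 without its form, so recipient cells with the receptor may remain in either library. Cells were sorted on CD45, CD11b, CD11c and CD64, a gate meant to hold macrophages and no lymphocytes or neutrophils, and both samples carry the label colon macrophage. The number of animals behind each library, their age and whether cells were pooled are not given in the sources used here.

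With 1 library per genotype no difference between the genotypes has a replicate check, so no p-value is given. Intervals in brackets are exact 95% intervals that cover counting error only, not the variation between mice or between cells. A genotype difference also cannot be told apart from a difference between the mice, sorts or 10x runs of the 2 libraries.

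The depth was close between the libraries in the largest class and lower in DKO over all cells. Of 2584 and 742 barcodes, 2443 KO and 730 DKO cells passed the filter of the study (300 to 5000 genes and at most 10% mitochondrial UMIs, where a UMI is 1 counted RNA molecule). The libraries shared 1 barcode. Cells were placed in classes by how many marker genes of each class they held, and a class is called "like" its cell type because no annotation of cells was used. The 1295 KO and 282 DKO monocyte/macrophage-like cells had median depths of 5628 and 5480 UMIs. Over all cells that passed the filter the medians were 4715 in KO and 3722 in DKO, and in T cell-like cells 3931 and 3455.5. Despite the sort, 293 KO and 104 DKO cells were T cell-like, 203 and 155 were B cell-like, 154 and 41 were neutrophil-like, and 44 and 23 were conventional dendritic cell-like. Markers set T cell-like cells clearly apart. The 8 T cell genes summed to 43.3 and 46.2 UMIs per 10000 in them, and to 0.0645 and 0.0974 in monocyte/macrophage-like cells. Neutrophil-like cells were less distinct, with monocyte/macrophage markers at 46.1 and 63.1, against 73.3 and 82.0 in monocyte/macrophage-like cells. Their own markers stood at 73.0 and 117.8. Of the conventional dendritic cell-like cells, 20 of 44 in KO and 10 of 23 in DKO held only the minimum of 2 markers. The deleted gene followed the labels, since Cers2 had 367 UMIs in monocyte/macrophage-like cells of KO and 0 in those of DKO.

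Interferon-stimulated genes are the output of a short pathway. Interferon-α and interferon-β bind a receptor made of Ifnar1 and Ifnar2, the kinases Jak1 and Tyk2 phosphorylate Stat2, and this joins Irf9 in a complex that binds a promoter motif called the interferon-stimulated response element (ISRE). Interferon-γ uses another receptor and acts through the gamma-activated site (GAS), and genes such as Irf1 and Socs1 answer to both kinds of interferon. In the gut, macrophages and their monocyte precursors make and answer interferons in response to microbial products.

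The promoters of the genes on which the results turn are shown first, since members differ in which motif they hold. The ISRE letters searched were GAAANNGAAA on both strands, and the GAS letters were TTCNNNGAA, which read the same on both strands. Promoter sequences of RefSeq (build GRCm38.p6, 250 bases before to 50 after a gene's start) were matched by symbol for 26 of the 33 members. Of these 26, 15 held the ISRE letters (57.7%), against 1079 of 27025 genes with a promoter (3.99%). The GAS letters stood in 5 of the 26 (19.2%) and in 2582 of all genes (9.55%). The GAS search was chosen after the values were seen. In the 150 bases before the start, capitals mark these letters, and overlapping matches run together. Isg15 (an ISRE cluster) is at chr4:156200819-156200968 on the minus strand, Ifit1 at chr19:34640739-34640888 on the plus strand, Bst2 (ISRE and GAS) at chr8:71537473-71537622 on the minus strand, Rsad2 at chr12:26456453-26456602 on the minus strand, Socs1 at chr16:10785537-10785686 on the minus strand and Irf1 (GAS alone) at chr11:53769864-53770013 on the plus strand.
Isg15: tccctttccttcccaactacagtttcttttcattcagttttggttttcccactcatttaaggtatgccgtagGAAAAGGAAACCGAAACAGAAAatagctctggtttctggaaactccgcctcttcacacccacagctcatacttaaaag
Ifit1: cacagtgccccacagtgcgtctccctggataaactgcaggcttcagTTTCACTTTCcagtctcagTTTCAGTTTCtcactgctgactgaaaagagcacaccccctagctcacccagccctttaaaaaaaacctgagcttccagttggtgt
Bst2: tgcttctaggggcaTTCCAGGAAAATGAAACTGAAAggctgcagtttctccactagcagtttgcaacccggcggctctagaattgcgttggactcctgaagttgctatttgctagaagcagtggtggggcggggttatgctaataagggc
Rsad2: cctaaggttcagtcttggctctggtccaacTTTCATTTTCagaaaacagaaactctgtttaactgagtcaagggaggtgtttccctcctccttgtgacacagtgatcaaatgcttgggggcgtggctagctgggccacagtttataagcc
Socs1: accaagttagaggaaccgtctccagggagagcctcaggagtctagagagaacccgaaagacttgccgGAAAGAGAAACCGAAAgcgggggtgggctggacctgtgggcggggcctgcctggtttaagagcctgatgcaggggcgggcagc
Irf1: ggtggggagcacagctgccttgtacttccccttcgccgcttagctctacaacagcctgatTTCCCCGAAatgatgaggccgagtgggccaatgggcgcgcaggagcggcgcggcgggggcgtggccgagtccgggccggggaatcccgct
The 3 ISRE matches of Isg15 began 78, 72 and 66 bases before its start, and the 2 of Socs1 began 83 and 77 bases before. Irf1 held a GAS match 90 bases before its start and no ISRE letters in this window, and Socs1 held no GAS letters in its own. In monocyte/macrophage-like cells, the median log2 ratio of DKO over KO was 0.07 for the 15 with ISRE letters and 0.03 for the 11 without. A match is a run of letters and not a measured binding site.

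Summed over the 33 members, the level differed widely between cell classes within each library. Neutrophil-like cells were highest, with 110.1 member UMIs per 10000 in KO (106.7 to 113.5) and 90.2 in DKO (84.1 to 96.6). Monocyte/macrophage-like cells followed with 43.4 in KO (42.9 to 43.8) and 38.2 in DKO (37.3 to 39.2). Conventional dendritic cell-like cells had 20.3 in KO (18.9 to 21.8) and 34.5 in DKO (32.1 to 37.1). T cell-like cells had 12.0 in KO (11.5 to 12.6) and 14.0 in DKO (12.9 to 15.2), and B cell-like cells were lowest with 8.39 (7.67 to 9.17) and 7.57 (6.78 to 8.43). The order of the 5 classes was the same in both libraries, and no neighbouring intervals overlapped. Against monocyte/macrophage-like cells of the same library, T cell-like cells stood at 0.277 times the level in KO and 0.366 times in DKO. Neutrophil-like cells were shallow, with median depths of 1722 and 1703 UMIs.

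**Figure D1:**
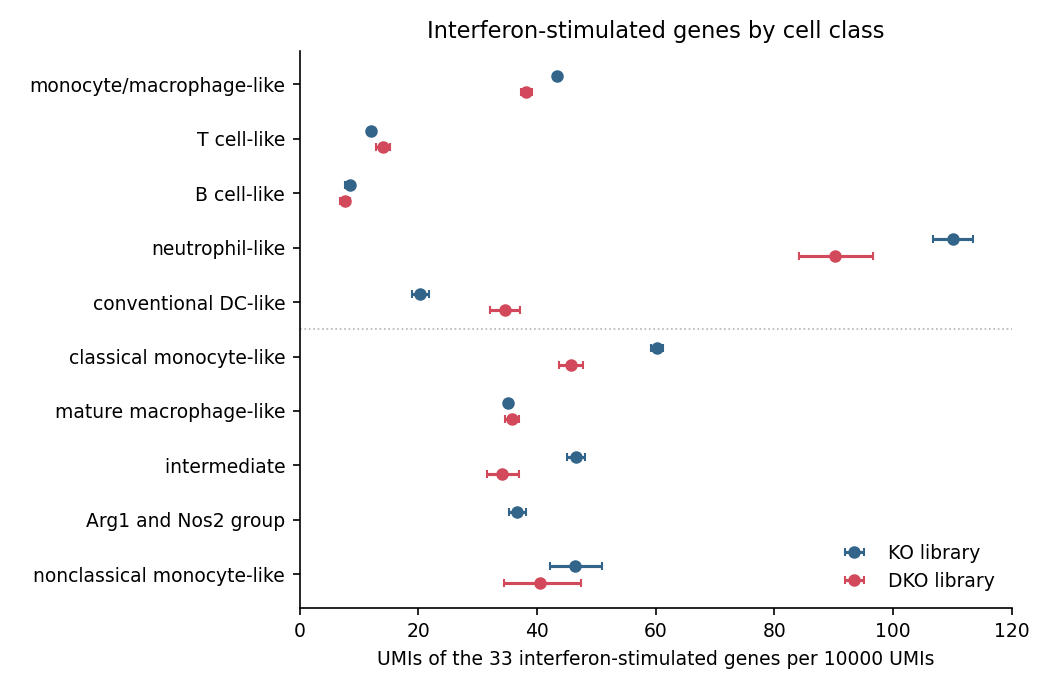
UMIs of the 33 interferon-stimulated genes per 10000 UMIs (horizontal axis) in each cell class (above the dotted line) and in the subclasses of monocyte/macrophage-like cells (below it). Points are the KO and DKO libraries and bars are exact 95% counting intervals, with 43.4 and 38.2 in monocyte/macrophage-like cells and 12.0 and 14.0 in T cell-like cells. No DKO cell fell into the Arg1 and Nos2 group.

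In monocyte/macrophage-like cells the member sum was lower in DKO than in KO by a small amount, and Isg15 accounted for most of it. The log2 ratio of DKO over KO was -0.18 (-0.22 to -0.14), or 0.881 times. Isg15, a ubiquitin-like protein that is attached to other proteins, made up 33.6% of the member UMIs in KO and 26.7% in DKO. It had 11092 UMIs in KO and 1678 in DKO, which is 1459 and 1022 CPM (UMIs per 1000000 of the class), a log2 ratio of -0.51 (-0.59 to -0.44). Without Isg15 the other 32 members summed to 28.8 per 10000 in KO and 28.0 in DKO, and the ratio was -0.04 (-0.09 to 0.01). The median log2 ratio over the members was 0.03, beside 0.09 over the 9585 genes with at least 20 UMIs, and 16 members were lower and 17 higher. A gene is called lower or higher here when its ratio is 1.5-fold or more from 1, with no test behind the call. This held for 1 member as lower and 2 as higher, where 8.09% of all genes passed this fold as lower and 12.5% as higher. With TMM scaling, which shifts every ratio in this class by -0.11, the median was -0.08, with 21 members lower, 12 higher, 3 called lower and 1 called higher, where 53.0% of all genes were lower, 10.8% called lower and 9.19% called higher.

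The per-cell levels moved with the sum. The median cell held 35.5 member UMIs per 10000 in KO and 26.0 in DKO, and the 90th percentiles were 90.8 and 81.4. A few cells carried much of the signal: the 5% of cells with most member UMIs held 20.05% of them in KO and 27.6% in DKO. Without these cells, an alternative added after the values were seen, the log2 ratio was -0.32 (-0.36 to -0.27). With each cell thinned to 1500 UMIs, an Isg15 UMI was found in 66.8% of cells in KO (64.1 to 69.4) and 45.5% in DKO (39.4 to 51.7), where the unthinned shares were 86.6% and 71.3%. In thinned B cell-like cells, the class with the lowest level, an Isg15 UMI was found in 10 of 193 KO cells (5.18%) and 6 of 150 DKO cells, at median depths of 2490 and 2515 UMIs. No class here is known to lack Isg15, so the B cell-like share only limits the background.

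**Figure D2:**
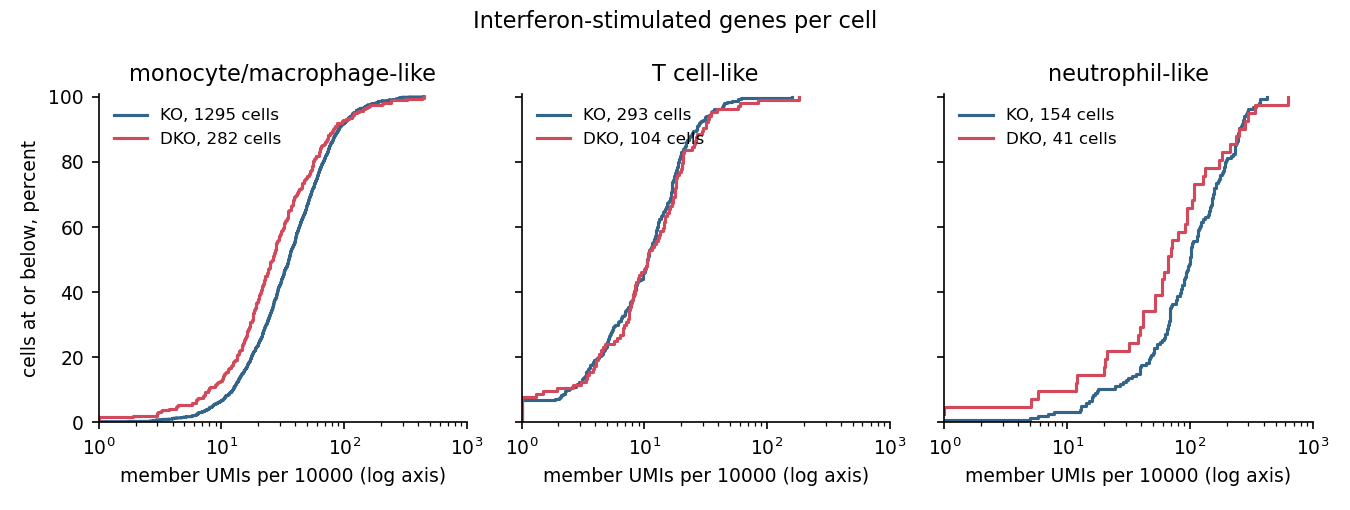
Share of cells (vertical axis, percent) at or below a given number of member UMIs per 10000 (horizontal log axis, cells at 0 drawn at 1) in monocyte/macrophage-like, T cell-like and neutrophil-like cells. The DKO curve lies to the left of the KO curve in monocyte/macrophage-like cells, with medians of 26.0 and 35.5, and the curves lie close together in T cell-like cells, with medians of 10.6 in both.

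Among feedback inhibitors and signal transducers, Socs1 stood apart. Socs1 blocks the Jak kinases and damps both interferon pathways. In monocyte/macrophage-like cells it had 811 UMIs in KO and 66 in DKO, which is 106.7 and 40.2 CPM and a log2 ratio of -1.40 (-1.79 to -1.05), the lowest of the 33. After thinning, 11.4% of KO cells and 4.10% of DKO cells held a Socs1 UMI. Usp18, which removes Isg15 from proteins and also damps the receptor, was near the other end with 9.34 and 13.4 CPM, a log2 ratio of 0.54 (-0.24 to 1.23) on 71 and 22 UMIs.

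The 4 transcription factors did not share a direction. Irf1, the member with most UMIs among them, had 362.8 CPM in KO and 350.1 in DKO, for a log2 ratio of -0.05 (-0.18 to 0.08). Irf7, which amplifies interferon production, was higher in DKO, with 117.2 and 162.6 CPM and a log2 ratio of 0.47 (0.27 to 0.67). The share of cells with an Irf7 UMI differed less, at 36.2% in KO and 39.4% in DKO. After thinning it was 15.9% (13.9 to 18.0) and 17.5% (13.2 to 22.6). Stat2 and Irf9, the partners of the ISRE-binding complex, had log2 ratios of 0.03 (-0.32 to 0.36) and 0.08 (-0.24 to 0.37).

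Of the 6 sensors of foreign nucleic acid 5 had a ratio below 0, beside 40.6% of all genes in this class. Zbp1, which binds Z-form nucleic acid and can start cell death, had most UMIs of this group, with 233.2 CPM in KO and 169.3 in DKO, for a log2 ratio of -0.46 (-0.65 to -0.28). Ifi209, of the family of DNA-binding interferon-inducible proteins, had 114.4 and 79.8 CPM and a log2 ratio of -0.52 (-0.80 to -0.25). Ifi209 and its relative Ifi204 have near-identical copies, so their reads may be split among family members. The RNA sensors Ifih1, Ddx58 and Dhx58 had log2 ratios of -0.12, 0.07 and -0.15, with intervals that all include 0.

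Of the 8 members of the IFIT and OAS families, which act on viral RNA, 7 had a ratio above 0, beside 59.4% of all genes, and TMM scaling put Ifit2 below 0 as well. All 4 members of the IFIT family, which bind RNA lacking host caps, had ratios above 0, and Ifit1, with most UMIs, had 33.8 and 40.2 CPM, a log2 ratio of 0.26 (-0.16 to 0.64). Without the cell that held most UMIs of a gene in each library, a check added after the values were seen, the ratios of Ifit1, Ifit2 and Ifit3 were -0.03, -0.18 and -0.01. Of the OAS family, which makes the activator of an RNA-degrading enzyme or, as the OAS-like proteins, helps RNA sensing, Oasl2 had most UMIs and a log2 ratio of -0.15 (-0.48 to 0.16). Oasl1, which holds back translation of Irf7, had 59.9 and 91.3 CPM and a log2 ratio of 0.61 (0.33 to 0.88), but 1 DKO cell held 34 of its 150 UMIs. Without such a cell in each library the ratio of Oasl1 was 0.32 (0.00 to 0.61), and an Oasl1 UMI was found in 17.1% of KO and 15.6% of DKO cells. Oas3 had 15.7 and 23.1 CPM and 0.58 (-0.00 to 1.10). Among other effectors Bst2, which tethers virus particles to the cell, had 331.1 and 403.0 CPM and a log2 ratio of 0.28 (0.16 to 0.41). A Bst2 UMI was found in 71.0% of KO and 68.4% of DKO cells. Ifi44 had the highest ratio of the 33, 0.85 (-0.05 to 1.64), but rests on 47 and 18 UMIs.

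**Figure D3:**
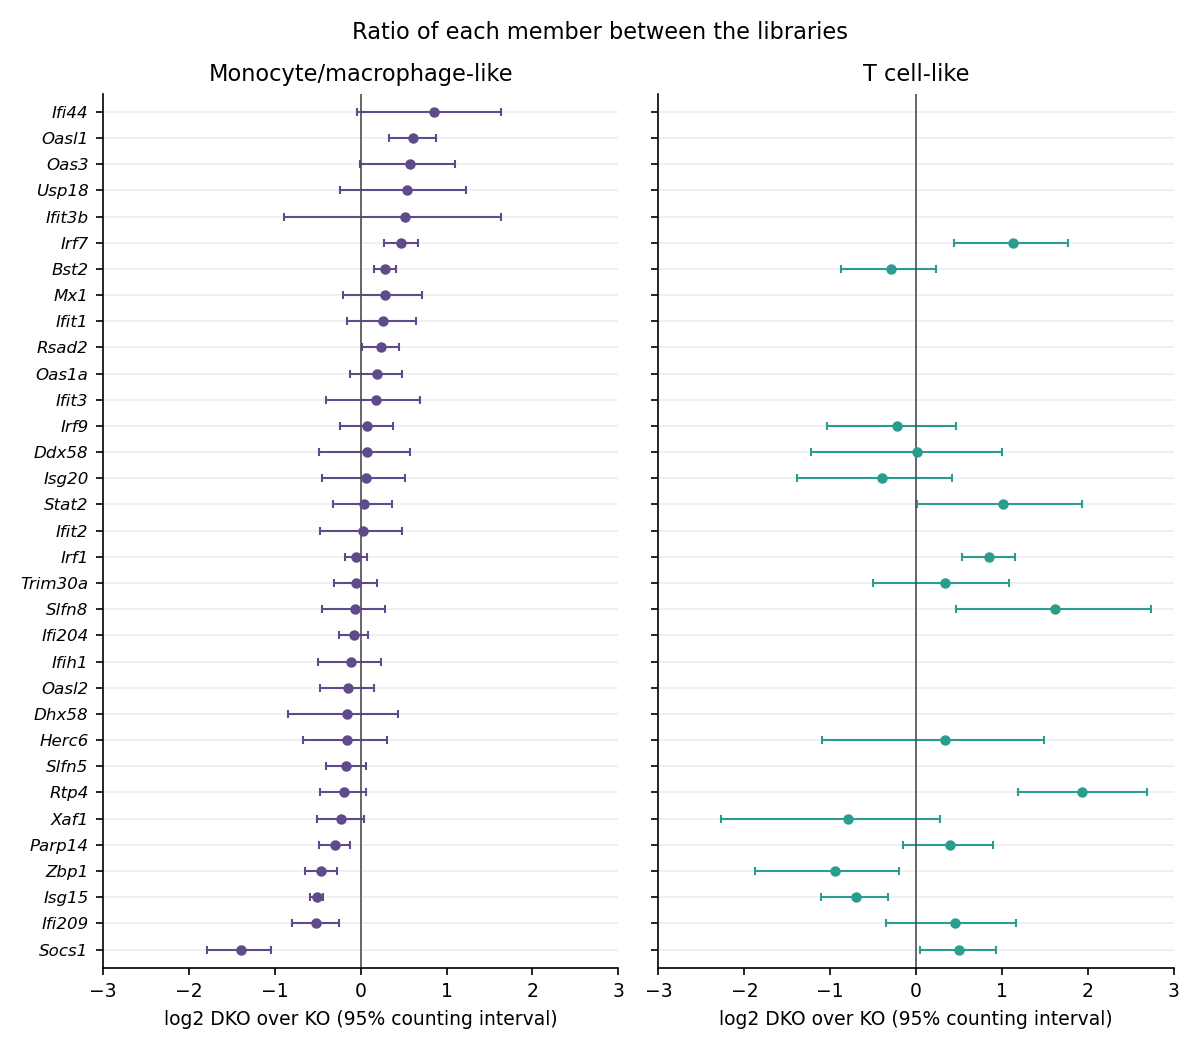
Log2 ratio of DKO over KO (horizontal axis) for each of the 33 members in monocyte/macrophage-like cells (left) and for the 17 with at least 20 UMIs in T cell-like cells (right). Points are ratios and bars are exact 95% counting intervals. Socs1 is lowest at -1.40 on the left and lies at 0.50 on the right, and Rtp4 lies at -0.20 and 1.93.

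Within monocyte/macrophage-like cells the sum was lower in DKO in classical monocyte-like cells and nearly level in mature macrophage-like cells, and the counting intervals of the ratios did not overlap. Classical monocyte-like cells (392 KO and 79 DKO cells) had 60.2 member UMIs per 10000 in KO and 45.6 in DKO, for a log2 ratio of -0.40 (-0.47 to -0.33). Mature macrophage-like cells (604 and 162 cells) had 35.1 and 35.8, a ratio of 0.02 (-0.03 to 0.08). The median cell of this subclass was lower in DKO, at 27.0 in KO and 22.6 in DKO. The 5% of its cells with most member UMIs held 22.2% of them in KO and 27.4% in DKO. In classical monocyte-like cells the medians were 50.3 and 32.7. Intermediate cells (173 and 32) had 46.5 and 34.1, a ratio of -0.45 (-0.57 to -0.33). Of 32 members measured in classical monocyte-like cells 24 were lower in DKO, beside 48.3% of all genes there, and 6 were called lower and 1 higher, with backgrounds of 13.2% and 13.1%. Of 32 measured in mature macrophage-like cells 12 were lower, beside 41.0% of all genes, with 1 called lower and 5 called higher, and backgrounds of 7.83% and 14.6%.

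Single members differed in how the subclasses compared. Isg15 was lower in both subclasses, with log2 ratios of -0.75 (-0.90 to -0.60) in classical monocyte-like and -0.34 (-0.44 to -0.24) in mature macrophage-like cells. In intermediate cells its ratio was -0.65 (-0.87 to -0.45). In the few nonclassical monocyte-like cells (21 KO and 9 DKO) it was 1.30 (0.57 to 2.03), on 34 and 34 UMIs. There 1 DKO cell held 72.1% of the member UMIs. Socs1 had 333 and 9 UMIs in classical monocyte-like cells, a ratio of -2.87 (-4.09 to -2.002), and 269 and 52 in mature macrophage-like cells, a ratio of -0.42 (-0.89 to 0.01). Rsad2, an antiviral enzyme that makes a chain-ending nucleotide, had -0.50 (-0.98 to -0.09) in the classical and 0.77 (0.49 to 1.05) in the mature subclass, but 1 DKO mature macrophage-like cell held 78 of its 157 UMIs. Without the cell that held most Rsad2 UMIs in each library the mature ratio was -0.04 (-0.42 to 0.31), and an Rsad2 UMI was found in 18.7% of KO and 15.4% of DKO cells. Slfn5, a growth-regulating member of the Schlafen family, had -0.65 (-1.03 to -0.31) and 0.52 (0.16 to 0.85), and -0.78 and 0.55 without such cells. Ifi209 ran the other way, with -0.06 (-0.46 to 0.30) in classical monocyte-like and -0.83 (-1.32 to -0.40) in mature macrophage-like cells, and Mx1, which blocks virus replication, had 0.61 (-0.03 to 1.18) and -0.24 (-1.12 to 0.50). A group of cells with Arg1 and Nos2 markers had 105 cells in KO at 36.7 member UMIs per 10000 and 0 cells in DKO, so the subclass makeup of the libraries differed. Without this group the ratio of the class was -0.21 (-0.25 to -0.17). Weighting the remaining subclasses of DKO as in KO, again without this group, gave -0.20.

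T cell-like cells went the other way in the sum, by a small amount that a few genes carried. The log2 ratio was 0.22 (0.08 to 0.35), from 1748 member UMIs in KO and 582 in DKO. Irf1 had 259 and 133 UMIs, which is 178.2 and 319.3 CPM, a log2 ratio of 0.84 (0.53 to 1.15). Without Irf1 the ratio of the other 32 members was 0.07 (-0.08 to 0.23). Without Irf1, Irf7, Socs1 and Bst2, which other signals or a resting state also express, it was -0.02 (-0.21 to 0.16). Of these 4, Bst2 itself was lower in DKO, with a ratio of -0.29 (-0.88 to 0.23). The median cell held 10.6 member UMIs per 10000 in both libraries.

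Of the 33 members 17 had at least 20 UMIs in T cell-like cells, and their median log2 ratio was 0.34, beside -0.07 over 6790 genes. At 1.5-fold, 3 were lower and 5 were higher, where 21.4% of all genes passed as lower and 11.3% as higher. Rtp4, a chaperone of receptors that also restrains some viruses, had 31 and 34 UMIs, or 21.3 and 81.6 CPM, a log2 ratio of 1.93 (1.19 to 2.69). Irf7 had a ratio of 1.13 (0.45 to 1.77) on 53 and 33 UMIs, Stat2 of 1.01 (0.01 to 1.93) on 28 and 16, and Slfn8 of 1.62 (0.46 to 2.74) on 16 and 14. Slfn8 has near-identical copies. At the low end Zbp1 had 104 and 15 UMIs, a ratio of -0.95 (-1.88 to -0.20), and Isg15 had 377 and 66, a ratio of -0.70 (-1.11 to -0.33). Xaf1 and Isg20 had ratios of -0.80 (-2.28 to 0.28) and -0.39 (-1.38 to 0.41). After thinning, an Irf1 UMI was found in 23.1% of cells in KO (18.4 to 28.4) and 39.4% in DKO (29.98 to 49.5), and an Isg15 UMI in 22.8% and 14.4%.

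**Figure D4:**
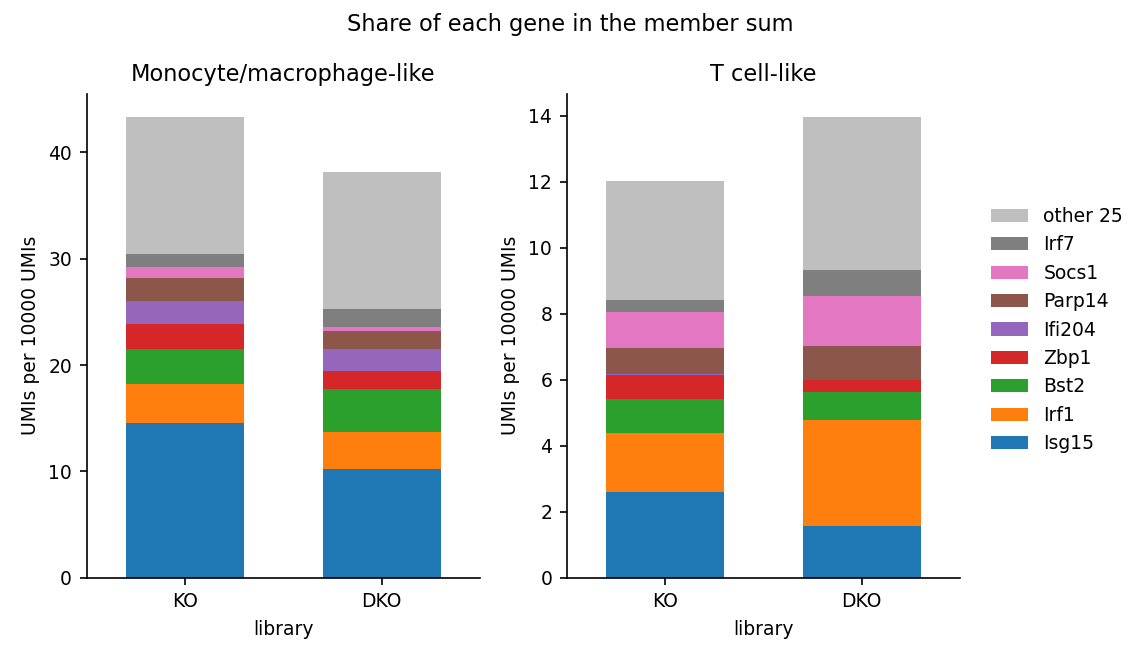
Member UMIs per 10000 (vertical axis, bars from 0) in monocyte/macrophage-like and T cell-like cells of the KO and DKO libraries, divided among 8 genes and the other 25. The Isg15 part is smaller in DKO in both classes, and the Irf1 part is larger in DKO in T cell-like cells.

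The T cell-like cells of the 2 libraries also differed in Gzma and in macrophage genes. Of the KO cells 44 held a UMI of Gzma, the gene of a cytotoxic granule protease, against 0 of 104 DKO cells, which allows up to 2.88% of cells with a Gzma UMI and sets no limit on cells that express it. Among cells without Gzma, 249 and 104, the ratio was 0.27 (0.12 to 0.41). Cells with Cd4 and no Cd8a numbered 62 and 9 and had a ratio of -0.16 (-0.67 to 0.28), and cells with Cd8a and no Cd4 numbered 63 and 9 and had 0.08 (-0.43 to 0.53). The macrophage genes Lyz2, Apoe, Il1b and Clec4e summed to 4.33 UMIs per 10000 in KO and 0.12 in DKO T cell-like cells. Taken as free macrophage RNA, this amounts to 13.7% of the member UMIs in KO and 0.261% in DKO, and taking it off gave a ratio of 0.42 (0.28 to 0.56). Among cells without any UMI of these 4 genes, 235 and 99, the ratio was 0.17 (0.02 to 0.32). These splits were chosen after the values were seen, except the free RNA correction.

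Set side by side, the sums of the classes moved apart. The log2 ratio of T cell-like cells minus that of monocyte/macrophage-like cells was 0.40 (0.26 to 0.54). Without Irf1, Irf7, Socs1 and Bst2 the difference was 0.23 (0.04 to 0.42). The ratio was then -0.02 (-0.21 to 0.16) in T cell-like and -0.26 (-0.30 to -0.21) in monocyte/macrophage-like cells. Of the 17 members measured in both classes, 8 were lower in monocyte/macrophage-like and higher in T cell-like cells, 3 were the reverse, 3 were lower in both and 3 higher in both. The pattern of lower and then higher was found for 16.7% of the 6452 genes measured in both classes, and the median difference was 0.49 over the members and -0.14 over all genes. At 1.5-fold, 8 members had the higher ratio in T cell-like cells and 0 the lower one, with backgrounds of 11.3% and 24.9%. The interval of the difference lay above 0 for Irf1 (0.89), Ifi209 (0.97), Slfn8 (1.69), Rtp4 (2.13), Parp14 (0.69) and Socs1 (1.90), and below 0 for Bst2 (-0.57). After thinning, the share of T cell-like cells with a UMI was larger in DKO for Irf1, Rtp4 (3.79% in KO and 9.62% in DKO) and Slfn8 (1.72% and 5.77%). It was no larger in DKO for Parp14 (13.4% and 12.5%), Socs1 (18.6% and 17.3%) and Ifi209 (7.24% and 5.77%). Isg15, Zbp1 and Xaf1 were the 3 members lower in both classes, with no free RNA taken off.

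The other classes gave less even pictures. Neutrophil-like cells had a ratio of -0.29 (-0.40 to -0.18), and Isg15, at 4449 and 3051 CPM, had -0.54 (-0.73 to -0.36), while Rsad2 had 0.88 (0.37 to 1.35). Of 26 members measured there 6 were called lower and 4 higher, with backgrounds of 23.2% and 14.6%. B cell-like cells had a ratio of -0.15 (-0.35 to 0.05), and without Isg15, whose own ratio was -1.59 (-2.48 to -0.84), of -0.00 (-0.22 to 0.21). Scaled on Lyz2, Apoe, Il1b and Clec4e, free macrophage RNA would amount to 4.81 member UMIs per 10000 in KO and 2.39 in DKO B cell-like cells, or 57.3% and 31.6% of their member UMIs. Most of the UMIs behind this were of Apoe (500 of 737 and 327 of 348), and their part in the result was not tested. Of 13 members measured there 5 were called lower and 1 higher, with backgrounds of 9.8% and 12.4%. Conventional dendritic cell-like cells had a ratio of 0.76 (0.62 to 0.91), but 2 of the 23 DKO cells held 60.7% of the member UMIs. Without the top 5% of cells in each library (3 KO and 2 DKO cells) the levels were 17.4 and 15.4 per 10000 and the ratio was -0.18 (-0.38 to 0.03). Isg15 was thus lower in DKO in the monocyte/macrophage-like, T cell-like, B cell-like and neutrophil-like classes. In the dendritic class Isg15 had a ratio of 0.60 (0.34 to 0.86), but -0.15 (-0.48 to 0.17) without the cell that held most of its UMIs in each library, and an Isg15 UMI was found in 81.8% of KO and 60.9% of DKO cells.

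The rest of the pathway was read from 38 genes that are no members. Ligands were scarce: of 16 ligand genes 15 had no UMI in monocyte/macrophage-like cells, and Ifnb1 had 3 UMIs in 2 KO cells there and 0 in DKO, where counts of 0 to 3 allow no comparison. Ifng, which encodes interferon-γ, had 158 UMIs in 52 KO T cell-like cells and 10 UMIs in 8 DKO ones, or 108.7 and 24.0 CPM, a log2 ratio of -2.11 (-3.27 to -1.26). In T cell-like cells without Gzma it had 125 and 10 UMIs and a ratio of -2.09 (-3.25 to -1.22). The receptor genes Ifnar1 and Ifnar2 had ratios of 0.05 (-0.15 to 0.24) and 0.01 (-0.18 to 0.19) in monocyte/macrophage-like cells. Jak2, a kinase of the interferon-γ receptor, had a ratio of -0.64 (-0.93 to -0.37) there. Irf8, a myeloid factor that interferon-γ also induces, had -0.42 (-0.58 to -0.27), and Ifngr1 had 0.45 (0.29 to 0.60). Irf5 had 0.39 (0.19 to 0.57) and Tlr3 1.61 (0.46 to 2.67). Mavs had 0.95 (-0.24 to 1.97) and Mb21d1 0.61 (-0.09 to 1.23). Of the 21 pathway genes measured in monocyte/macrophage-like cells 5 were lower and 16 higher, and of the 16 measured in T cell-like cells 11 were lower and 5 higher. Of all genes measured, 59.4% were higher in monocyte/macrophage-like cells and 55.3% were lower in T cell-like cells.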

How the data were processed

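Raw UMI counts per gene and cell were deposited by the authors, who aligned the 10x Chromium 3′ v3.1 reads to mm10 with Cell Ranger 6.0.1 per their processing notes. Such counts have no length term. Each library is 1 sample, grouped by its genotype label. The members, gene lists and markers were chosen with earlier results of these data known, and the cutoffs of the marker gate were set after the files were read, on marker counts alone.

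Each cell was given to whichever class had most of its marker list detected, provided that at least 3 markers were (2 for dendritic cells) and that this share was 1.25 times that of the next class. Cells under these limits were "mixed" (73 KO and 19 DKO) or without a class (351 and 100) and were left out. Doublets were not removed in the main values. Member UMIs were summed per class and divided by all UMIs of the class. Ratios have 0.5 added to each sum, with exact Poisson, binomial and conditional intervals (scipy 1.17.1). Only the conditional intervals were tested, on simulated Poisson counts. Those counts hold no clumping of UMIs in single cells, so the test cannot show how the intervals do on clumped members. Medians leave out genes with under 20 UMIs in all. Named members are, by rule, the one with most UMIs in each role group in monocyte/macrophage-like cells and the 4 lowest and 4 highest ratios in that class and in T cell-like cells, and members named beyond these were chosen after their values were seen. Alternatives used Seurat 5.3.0 clusters with the members left out of the variable genes, edgeR 4.0.16 TMM factors and Scrublet scores (scanpy 1.11.5). The counts over the other pathway genes include 1 gene whose values are not reported here.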

Additional observations from a re-analysis of the deposited data

Results flagged for a closer look

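The member sum of T cell-like cells was higher in DKO than in KO while that of monocyte/macrophage-like cells was lower, and the log2 ratios differed by 0.40 (0.26 to 0.54). With 1 library per genotype this difference was not tested beyond counting error. Without Irf1, Irf7, Socs1 and Bst2 the T cell-like ratio was -0.02 (-0.21 to 0.16) and the difference was 0.23 (0.04 to 0.42). Macrophage genes were detected in KO T cell-like cells at 4.33 UMIs per 10000 and in DKO ones at 0.12, and 44 KO but 0 DKO T cell-like cells held a Gzma UMI, while monocyte/macrophage-like cells held 5 Gzma UMIs in KO and 19 in DKO.

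Conventional dendritic cell-like cells had a log2 ratio of 0.76, opposite to monocyte/macrophage-like cells, which was not tested either. Of their member UMIs in DKO, 2 of 23 cells held 60.7%, and the ratio was -0.18 without the top 5% of cells in each library.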

How the results depend on the processing

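No paired analysis was possible because each group holds 1 library and the labels carry no replicate numbers. For monocyte/macrophage-like cells the log2 ratio of the sum kept its direction in 14 of 14 alternatives and left its counting interval in 6, at -0.11 with a stricter gate, -0.30 with TMM scaling, -0.13 with cells thinned to 1500 UMIs, -0.26 without Irf1, Irf7, Socs1 and Bst2, -0.14 with free RNA taken off and -0.32 without the 5% of cells with most member UMIs. For T cell-like cells it kept its direction in 13 of 14, was -0.023 without Irf1, Irf7, Socs1 and Bst2, and 0.42 with free RNA taken off, and its interval reached 0 with the stricter gate (0.13, -0.01 to 0.27) and without the 5% of cells with most member UMIs (0.15, -0.01 to 0.30). Their difference kept its direction in 14 of 14 and was 0.24 with the stricter gate, 0.55 with TMM scaling, 0.23 without those 4 genes and 0.56 with free RNA taken off. Leaving out each member in turn gave -0.23 (without Bst2) to -0.040 (without Isg15), 0.074 (without Irf1) to 0.39 (without Isg15), and 0.27 to 0.49 for the difference. The median over members ranged from -0.08 to 0.09 in monocyte/macrophage-like cells, where its sign changed in 4 of 14 alternatives, and from -0.01 (thinned) to 0.41 in T cell-like cells. The cause of these moves was not tested. In T cell-like cells 16 of 33 members had under 20 UMIs and were too shallow for a ratio. The last alternative named for monocyte/macrophage-like cells was added after the data were seen.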
